A study of Mus musculus with 36 samples.

Results

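Among 46019 probes on the array, 91 dipped in level within the first 3 h of C2C12 differentiation and on average no longer lay far below their starting level over 9, 12 and 24 h. The choice was made on the authors' normalized table, whose values are on a log2 scale, so that a difference of -1 is a halving of the measured signal. For each probe the mean of the 3 arrays at 1, 1.5, 2 and 3 h was set against the mean of the 3 arrays at 0 h. A member had its lowest early difference at or below -0.45, was lower in all 3 replicates at that time, and had a mean difference above -0.2 over 9, 12 and 24 h. That mean had no upper bound. At 24 h alone 50 of the 91 lay within 0.2 of 0 h, and single members ran from -0.51 to 1.07. The first condition left 340 probes, the second left 280, and 189 of these were dropped because they had not recovered. Of the 91 members, 69 carry 1 gene symbol and stand for 67 genes, since Slf2 and Map1b have 2 member probes each, and 22 have no symbol here. The depth of the early dip and the recovery chose the members and are therefore descriptions, with no test.

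C2C12 is an established line of mouse myoblasts, the dividing precursors of skeletal muscle. At 0 h the cultures were undifferentiated in DMEM with 20% FBS, and the other 11 groups had been moved to DMEM with 2% horse serum for 1, 1.5, 2, 3, 6, 9, 12, 24, 48, 96 or 144 h. Each time had 3 cultures from successive passages, harvested from separate plates, which gave 36 Illumina Mouse WG-6 v1.1 arrays of total RNA. All groups are 1 unmodified line, and no group kept in growth medium beside the later times is analysed here, so medium change, loss of serum and time cannot be told apart.

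Serum carries growth factors and cytokines, and its withdrawal lets myoblasts leave the cell cycle, switch on muscle genes and fuse into myotubes. Signals are kept in check by negative feedback genes with short-lived mRNAs, such as Socs3 below cytokine receptors and Hes1 below Notch, whose levels follow the signal closely in time. Cholesterol synthesis is governed by a similar loop, in which SREBP factors raise sterol enzymes when the cell is short of sterol. Transcript levels in a population of cells cannot tell less RNA per cell from fewer cells with the RNA.

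The labelled cells were checked against their defining markers. The summed linear level of 3 myotube marker probes went from 10186 at 0 h to 73126 at 144 h, and that of 4 myoblast marker probes from 11543 to 21671. These sums are carried by the brightest probes. On the log2 scale Acta1 went from 13.16 to 15.97, Ckm from 8.59 to 12.59 and Myog from 9.31 to 11.41. Of the myoblast markers Cdh15 went from 12.74 to 13.44 and Des from 11.63 to 13.13, but Myod1 stood at 10.19 and 10.29 and Myf5 at 8.58 and 8.46. Markers of endothelial cells, adipocytes and macrophages lay at 8.35 to 8.42 on the log2 scale at 0 h, near the lowest value of the whole table, 8.33, and their summed levels ran from 2305 to 2322, 1322 to 1343 and 1636 to 1648 across the 12 times. The summed level of fibroblast markers, some of which C2C12 cells also express, ran from 11825 to 20367. Its brightest probe, of Col3a1, stood at 13.43 at 0 h and 13.35 at 144 h. On their brightest probes Dcn went from 10.87 to 11.72 and Pdgfra from 9.92 to 9.00. Both Thy1 probes lay at 8.35 at 0 h, near the lowest value. The arrays lay on 6 chips of 6, and in every replicate the arrays of 0, 1 and 1.5 h sat on the same chip, while each other time sat beside 0 h in 1 replicate of 3.

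The promoters of 3 members are shown because each holds a motif for a signal-controlled factor and its gene's values stand out below: Socs3 with a STAT-type motif, Hmgcs1 with an SRE-type motif, the kind SREBP binds, and S1pr2 with a CRE-type motif. Each is the 250 bases before the transcription start in RefSeq on GRCm38.p6, read 5′ to 3′ along the gene's strand. Capitals mark TTCNNNGAA, the STAT-type motif, in Socs3 (chr11:117969367-117969616, minus strand), TCACNCCAC, the SRE-type motif, together with CCAAT in Hmgcs1 (chr13:119690101-119690350, plus strand), and TGACGTCA in S1pr2 (chr9:20976794-20977043, minus strand). CCAAT appears as ATTGG where it lies on the other strand.
Socs3: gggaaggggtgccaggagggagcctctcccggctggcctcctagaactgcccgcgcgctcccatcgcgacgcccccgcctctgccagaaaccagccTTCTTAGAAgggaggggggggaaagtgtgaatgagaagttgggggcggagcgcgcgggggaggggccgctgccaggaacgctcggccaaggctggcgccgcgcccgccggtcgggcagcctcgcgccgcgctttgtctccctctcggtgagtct
Hmgcs1: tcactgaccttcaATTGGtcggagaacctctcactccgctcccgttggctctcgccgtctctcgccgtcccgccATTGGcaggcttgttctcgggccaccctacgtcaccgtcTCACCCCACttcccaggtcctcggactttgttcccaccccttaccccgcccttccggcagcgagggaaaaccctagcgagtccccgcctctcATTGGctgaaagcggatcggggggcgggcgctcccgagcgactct
S1pr2: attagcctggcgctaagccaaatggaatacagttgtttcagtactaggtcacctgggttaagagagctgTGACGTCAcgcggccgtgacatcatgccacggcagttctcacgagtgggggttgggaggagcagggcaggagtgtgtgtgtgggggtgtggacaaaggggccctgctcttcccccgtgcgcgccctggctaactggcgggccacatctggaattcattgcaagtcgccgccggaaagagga

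Promoters were found for 54 member genes, and both strands were searched. TTCNNNGAA lay in 3 of the 54, which is 5.56% against 8.13% of all 27025 genes with a promoter sequence, the others being Zfp84 and Pfkm. TCACNCCAC lay in 3, or 5.56% against 1.22%, the others being Khnyn and 2900026A02Rik. TGACGTCA lay in 2, or 3.70% against 1.77%, the other being Mterf1b. CCAAT lay in 29.6% of member genes against 37.5%, and TATAAA in 13.0% against 14.3%. In the 3 printed promoters no marked motif overlapped another, and the median GC content was 62.6% in member promoters against 52.4% in all promoters. These matches describe letters in a window and say nothing of whether a factor was bound.

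The members reached their lowest level at different times: 15 members were lowest at 1 h, 32 were at 1.5 h, 23 at 2 h and the last 21 at 3 h. The deepest difference from 0 h was -1.11 and the median -0.50, with class medians of -0.51, -0.50, -0.49 and -0.49 in the order of the times. The order of the classes up to 3 h follows from how they were defined. At 6 h, whose arrays the rule did not use, 3 of the 15 members lowest at 1 h lay below their 0 h mean, against 10 of 32, 16 of 23 and 20 of 21 in the later classes. The 0 h arrays in this comparison are those of the rule, so these counts are not independent of the choice. The class lowest at 3 h had a median of -0.31 at 6 h and -0.05 at 9 h. Across all 29812 probes above the signal filter the median difference from 0 h rounded to 0.00 at every time. The array medians of this table are nearly equal, from 8.37 to 8.38, so a median near 0 was largely fixed in advance and is no contrast to the dip.

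**Figure D1:**
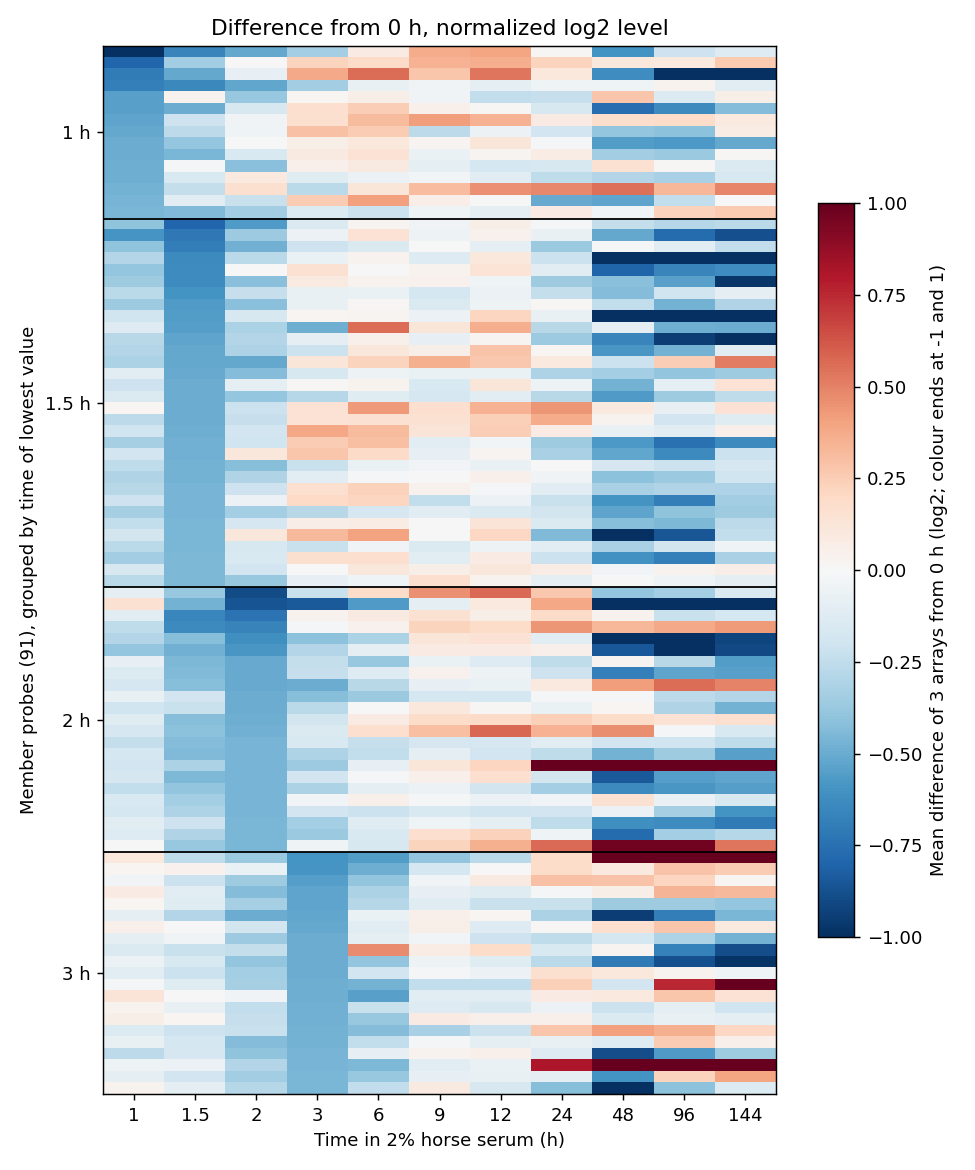
Difference of each of the 91 member probes from 0 h (rows, mean of 3 arrays minus mean of 3 at 0 h, log2; blue is lower, red higher) at the 11 later times (columns), with probes grouped by the time of their lowest value and sorted by depth. The blue band moves from 1 h in the top block to 3 h in the bottom block, most rows are pale from 9 to 24 h, and rows of both colours appear from 48 h on.

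At their lowest time, 84 of the 91 members had all 3 arrays below all 3 arrays at 0 h, namely 10 of 15, 30 of 32, 23 of 23 and 21 of 21 in the classes from 1 h to 3 h. Among all probes above the filter this held for 4.66%, 5.97%, 6.68% and 7.49% at these times. In the limma fit to the raw table, which adjusts over all 29812 probes, 4 members passed an adjusted p of 0.05 at 1 h and 8 did so at 1.5 h, beside 0.0403% and 0.124% of all probes called lower. The numbers were 11 at 2 h and then 7 at 3 h, beside 0.218% and 0.282%. All of these were lower than at 0 h. The rule used the same contrasts, so both the overlap and the calls against 0 h are descriptions of chosen probes, and nothing is read from their distance to the shares of all probes. The 3 members nearest the depth threshold were Zfp397, Mogs and 1 unnamed probe, all at -0.45, and the nearest probes outside it were Zdhhc12, Hook2 and 6030458C11Rik, also at -0.45 after rounding. On the side of the recovery, Ccdc191, Zmym3 and Ankmy2 lay just inside at -0.18, -0.19 and -0.19, and Tns2, Nit1 and St6gal1 just outside at -0.20.

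All 91 members were bright. Their median level over all arrays was 10.85, against 8.50 for probes above the filter, and all 91 passed a stricter filter, above the 75th percentile of the raw table on at least 3 arrays, that 28.8% of all probes passed. The lowest value of the table was 8.33, so a probe near it could not fall far enough to reach -0.45. The brightness therefore follows in part from the rule and is no separate trait of the members. The 3 replicates did not contribute evenly. In the class lowest at 1.5 h the median same-numbered difference from 0 h was -0.32 in replicate 1, -0.51 in replicate 2 and -0.74 in replicate 3. In the class lowest at 3 h it was -0.57, -0.37 and -0.53.

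At several times the 32 members lowest at 1.5 h also moved together between replicate arrays of a single time. At 2 h replicate 2 was the highest of the 3 arrays for 29 of them and replicate 1 for 0, and at 9 h replicate 3 was the highest for 27. At 144 h replicate 1 was the highest for 27, with a median of 0.51 above the mean of the other 2 arrays. At 48 h replicate 3 was the highest for 26, and at 0 h, the baseline, replicate 3 for 24. Among the 13256 bright probes the array named here was the highest for 39.8%, 32.7%, 35.1%, 31.0% and 39.3% of probes at these times in the same order. Not every time had such a shift. At 12 h replicates 1, 2 and 3 were the highest for 11, 10 and 11 of the 32 members, and at 3 h for 15, 6 and 11. The early dip of this class was thus read against a replicate spread that its probes shared, and the part of that shared spread in the dip was not tested.

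The dip was also measured in arrays that had no say in the choice. The rule was applied to 2 replicates and its probes were then read in the third, which gave 159, 158 and 105 probes with replicate 1, 2 and 3 left out. Their median in the 2 choosing replicates was -0.52, -0.51 and -0.52, and in the left-out replicate at the same time -0.20, -0.33 and -0.37, a mean of -0.30 ± 0.09 (SD, n = 3). In the left-out replicate 72.3%, 85.4% and 81.9% of the probes were below their 0 h array, and 22.0%, 24.1% and 34.3% reached -0.45, while of all filtered probes 47.3% to 53.5% were below 0 at any of the 4 times. The dip was thus shallower in arrays that had not chosen it, and at some times it was nearly absent. With replicate 1 left out, 109 of the 159 probes had their lowest value at 1.5 h, and their median in replicate 1 was -0.05, with 65 below 0. With replicate 2 left out, 50 probes were lowest at 1 h, and their median in replicate 2 was -0.13, with 28 below 0. Probes lowest at 3 h had medians of -0.53, -0.31 and -0.40 in replicates 1, 2 and 3 with 20 of 20, 46 of 46 and 23 of 24 below 0, which was the deepest class only in replicate 1. In replicates 2 and 3 the probes lowest at 1.5 h were deeper, at -0.43 and -0.49, with 32 of 32 and 17 of 17 below 0. The left-out replicate's median over 9, 12 and 24 h was 0.05, -0.03 and 0.01. Of the 91 members, 32 were chosen again in all 3 pairs of replicates, 39 in 2, 16 in 1 and 4 in none.

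**Figure D2:**
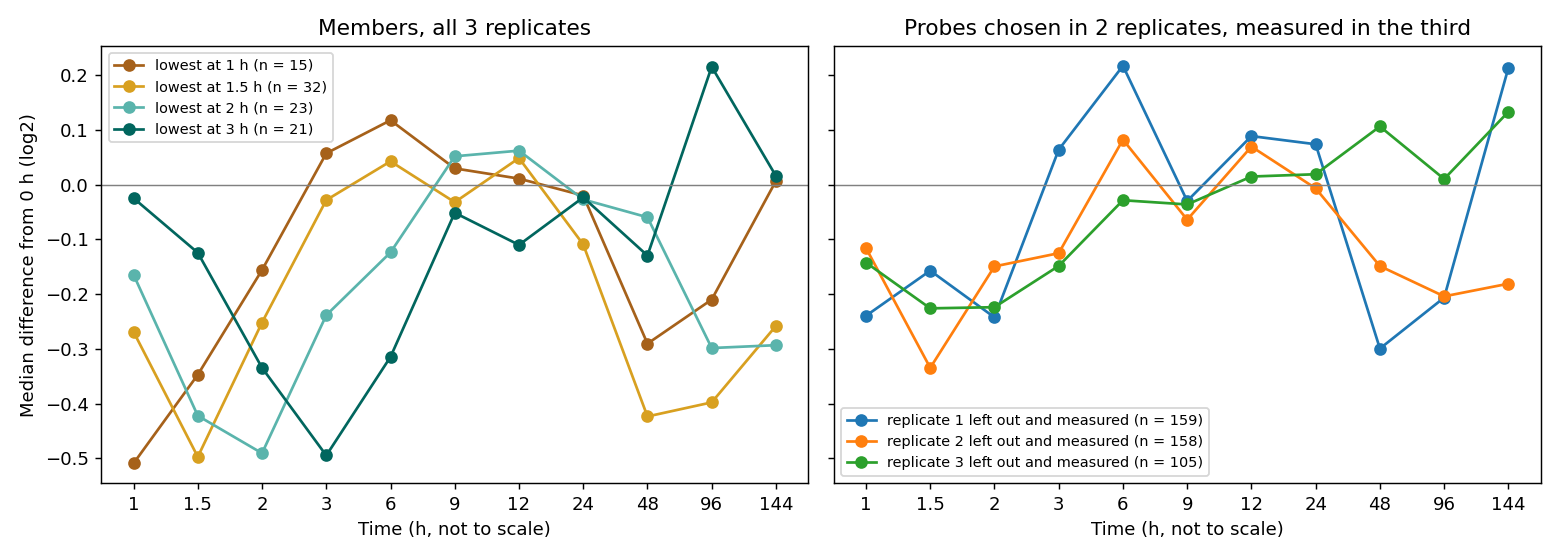
Median difference from 0 h (log2) at each later time, on the left for the 4 classes of members by the time of their lowest value and on the right for probes chosen by the same rule in 2 replicates and read in the replicate left out. The left curves reach about -0.50 at the time that defines each class, whereas the right curves reach no lower than -0.33 at any single time, where probes of all classes are mixed.

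Other probes of the same genes gave a second reading. Of the 67 genes, 42 have at least 1 other probe on the array, and 27 of these 71 probes, from 20 genes, passed the stricter filter. At the member's lowest time 25 of the 27 lay below 0, with a median of -0.11. Only 8 lay at or below -0.2, at 0 h levels of 8.97 to 12.88, and the other 19, at 0 h levels of 8.47 to 10.85, were closer to 0. Another probe was close to the member for Hoxa7, at -0.43 against -0.46, for Nav1, at -0.43 against -0.59, for Stard4, at -0.37 against -0.50, and for Ephb4, at -0.36 against -0.46. Sft2d2 had 3 other bright probes, at -0.39, -0.11 and -0.05 against -0.46. Uhrf2, an E3 ligase that binds methylated DNA, had a brighter probe that was lower by more than the member, -0.90 against -0.50, and 2 others at -0.05 and -0.02. In several genes the other bright probes showed little or none of the dip. They lay at 0.02 and -0.07 against -0.79 in Arhgef2, and at 0.03 and -0.08 against -0.47 in Khnyn. In Klf3 the other probe lay at -0.09 against -0.63, in Sin3b at -0.07 against -0.49, in Grasp at -0.08 against -0.50, in Khdc4 at -0.03 against -0.49 and in Fbxo42 at -0.05 against -0.47. Pacsin3 had 2, at -0.11 and -0.04 against -0.47, and Pfkm and Dusp18 had 1 each at -0.13, against -0.46 and -0.47. The other probes of Pacsin3, Pfkm, Sin3b, Grasp and Fbxo42 lay at only 8.47 to 8.78 at 0 h, and that of Klf3 at 8.92. The lowest value of the table was 8.33, so these probes had little room to fall and cannot decide whether the dip was shared. Higher 0 h levels were those of 1 other probe each in Arhgef2, 10.05, and Khnyn, 10.85.

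Late behaviour was tested between times that the rule did not use, with 6 h as the reference. At 6 h, 20 of the 21 members lowest at 3 h and 16 of the 23 lowest at 2 h still lay below their 0 h mean. A rise from 6 h in such members can therefore hold part of the recovery by which they were chosen. A positive log2 difference means a higher level at the later time, and the values are from the limma fit. At 48 h against 6 h, 12 were higher, 32 lower and 47 not called, so that 48.4% were called, against 18.6% of all 29812 probes tested (9.02% higher and 9.61% lower) and 34.6% of the 13256 bright ones. At 96 h it was 15 higher, 31 lower and 45 not called, or 50.5% against 23.8% and 42.5% (all probes 11.0% higher and 12.8% lower, bright ones 20.2% and 22.3%). Under median scaling the split at 96 h was 9 higher and 41 lower, and all probes moved with it, from 3272 higher and 3824 lower to 1767 and 5045. At 144 h 14 were higher, 22 lower and 55 not called, or 39.6% against 20.6% and 38.1% (all probes 9.87% higher and 10.8% lower, bright ones 17.9% and 20.2%).

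The share of members called was thus near that of bright probes at 144 h. At 48 h the excess was on the lower side only, with 35.2% of members lower against 17.2% of bright probes. On the higher side it was 13.2% against 17.4%. Bright probes are not matched to the members in level, since some stood at 8.47 at 0 h and no member stood below 9.30. Such dim probes have little room to fall, and their part in the gap was not tested. The median log2 difference of the members was -0.30, -0.27 and -0.26 at 48, 96 and 144 h against 6 h, and that of all probes tested lay between -0.01 and 0.02, where quantile normalization largely holds it. From 48 h to 144 h 11 members were higher and 8 lower, 20.9% against 8.57% of all and 16.7% of bright probes. All probes were 3.95% higher and 4.61% lower and bright ones 7.23% and 9.43%, and the members' split was 6 and 2 under median scaling and 14 and 6 under cyclic loess. All probes went from 1179 higher and 1375 lower to 890 and 803 and to 1620 and 1202 in these settings.

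**Figure D3:**
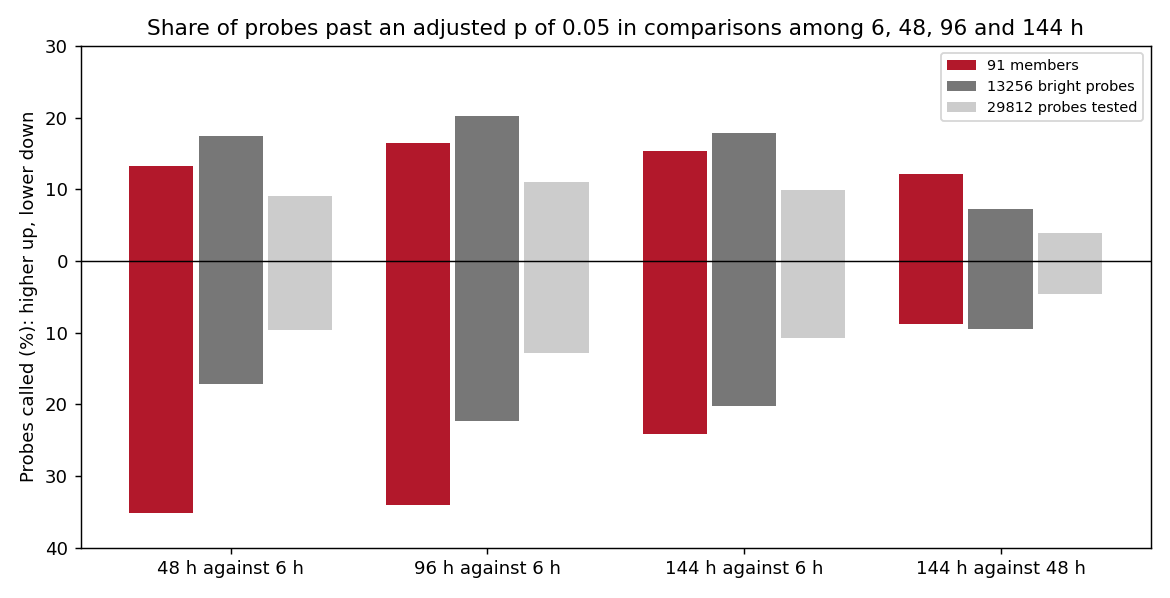
Percent of probes called at a limma adjusted p below 0.05, higher (above the line) or lower (below it), among the 91 members, the 13256 bright probes and all 29812 probes tested, in 4 comparisons between times the rule did not use. The share called lower was 35.2% of members and 17.2% of bright probes at 48 h against 6 h, and 34.1% and 22.3% at 96 h.

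The late calls were also counted by the time of the early low. Of the 32 members lowest at 1.5 h, 16 were lower and 0 higher at 48 h than at 6 h. By 144 h the counts were 9 and 0. Of the 21 lowest at 3 h, 7 were higher at 48 h and 3 lower, and by 144 h the counts were 9 and 2. At 48 h the class lowest at 1 h had 5 members lower and 0 higher, and that lowest at 2 h had 8 and 5. Of bright probes 17.2% were lower and 17.4% higher at 48 h, and 20.2% and 17.9% at 144 h. Among all probes tested the shares were 9.61% and 9.02%, and then 10.8% and 9.87%. The difference between classes was not tested, because the classes come from the same choice of probes.

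These class counts depended on single arrays. For the class lowest at 1.5 h, the number lower at 48 h lay between 8, without replicate 2, and 19, with the replicate block, and was 11 when replicate 1, or its array at 6 h or 48 h alone, was left out. At 144 h it went from 9 to 17 without the 144 h array of replicate 1, the array on which 27 of these 32 probes were highest, and to 6 without replicate 2 or replicate 3. For the class lowest at 3 h the number higher at 144 h lay between 6, without replicate 3, and 11.

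To describe the members by what they do, 54 of the 67 genes were sorted by textbook role after their values had been seen. There were 9 signalling genes, 20 of transcription and chromatin, 6 of RNA binding and modification, 3 of genome maintenance, cell cycle and cell death, 6 of metabolism, and 10 of cytoskeleton and membrane traffic. Genes outside the naming rule given with the processing were also picked with their values known. Levels are those of the authors' normalized table, in the order of replicates 1, 2 and 3.

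Among ligands, Ccl7, a chemokine that attracts monocytes, stood at 10.70, 10.45 and 10.49 at 0 h and at 9.82, 9.41 and 9.80 at 2 h, a difference of -0.86 ± 0.18 (SD, n = 3). The 2 sets of arrays did not overlap. By 24 h it lay 0.39 above the start and it then stood at 9.11, 9.56 and 9.34 at 48 h and 8.90, 9.37 and 9.35 at 144 h, from 10.12, 9.68 and 10.14 at 6 h. The difference between 144 h and 6 h was -1.13 ± 0.25 (SE; limma adjusted p = 0.0012), and without replicate 3 it was -1.15 with an adjusted p of 0.055. Pgf, placental growth factor, was at 10.00, 10.06 and 10.04 at 0 h and 9.44, 9.57 and 9.57 at 2 h, and it stood at 9.59, 9.74 and 9.64 at 6 h and 10.00, 10.30 and 9.87 at 48 h. That rise of 0.57 ± 0.18 (SE; adjusted p = 0.028) was lost in 8 of 18 alternatives, with adjusted p of 0.053 to 0.195 there. At 48 h the mean of Pgf lay 0.02 above that at 0 h.

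Receptors formed the next group. Osmr, a signalling subunit of the oncostatin M receptor, was at 10.81, 11.02 and 11.20 at 0 h and at 10.25, 10.52 and 10.70 at 3 h. Its arrays did not overlap between the times, and the same-numbered differences were nearly equal at -0.52 ± 0.03 (SD, n = 3). After recovery it fell from 11.13, 10.80 and 10.90 at 6 h to 10.03, 10.00 and 10.19 at 48 h, a difference of -0.96 ± 0.15 (SE; limma adjusted p = 2.8e-05), a call kept under all 18 alternatives. S1pr2, a receptor for sphingosine 1-phosphate, was at 11.91, 12.11 and 12.28 at 0 h and 10.96, 11.68 and 11.78 at 1.5 h, and replicate 1 gave the largest part of that difference. It fell from 11.94, 12.27 and 12.19 at 6 h to 10.94, 11.14 and 11.31 at 144 h, a difference of -0.99 ± 0.17 (SE; limma adjusted p = 3e-05), also under all 18 alternatives. Ephb4, the receptor tyrosine kinase for ephrin-B2, had a difference of -0.46 ± 0.11 (SD, n = 3) at 2 h, and fell between 6 h and 144 h (-0.58 ± 0.12, SE; limma adjusted p = 0.00033). Without replicate 2 the adjusted p was 0.0627 with a difference of -0.49.

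Notch1, the receptor above Hes1, was at 10.71, 10.69 and 10.76 at 0 h and 10.34, 9.99 and 10.37 at 2 h, and its mean at 12 h lay 0.58 above the start. It passed no test between 6 h and 48 h (0.36 ± 0.25, SE; limma adjusted p = 0.38) or 144 h (-0.27 ± 0.25, SE; adjusted p = 0.55).

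The deepest dip of all members was that of Socs3, an inhibitor of JAK-STAT signalling that cytokine receptors induce through STAT3. Its level was 11.41, 11.17 and 11.56 at 0 h and 10.33, 10.12 and 10.37 at 1 h. Every array at 1 h lay below every array at 0 h, and the difference was -1.11 ± 0.07 (SD, n = 3). It then stood 0.37 above the start at 9 h and 0.40 at 12 h, and at 10.57, 10.77 and 11.01 at 48 h. From 6 h to 48 h it fell, with a difference of -0.67 ± 0.17 (SE; limma adjusted p = 0.0046). That call was lost without replicate 1, where the difference was -0.53 (adjusted p = 0.0967), and without replicate 2, where it was -0.77 (adjusted p = 0.0511). At 144 h it was 11.10, 11.25 and 11.40, and the difference from 6 h did not pass the test (-0.19 ± 0.17, SE; adjusted p = 0.53).

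Of the signalling genes, 2 were higher and 4 lower at 48 h than at 6 h, and 3 did not pass the test. Beside these few genes, 17.4% of bright probes were higher and 17.2% lower, and 9.02% and 9.61% of all probes. Dusp18, a dual-specificity phosphatase, was one of the 2 that rose: it stood at 9.09, 9.58 and 9.37 at 6 h and 10.30, 10.02 and 10.24 at 48 h, a difference of 1.21 ± 0.14 (SE; limma adjusted p = 1.3e-07). Against 0 h its mean at 48 h was higher by 0.41. Its dip, from 9.73, 9.80 and 9.80 to 9.29, 9.31 and 9.32 at 3 h, was one of the most even among replicates, at -0.47 ± 0.03 (SD, n = 3).

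**Figure D4:**
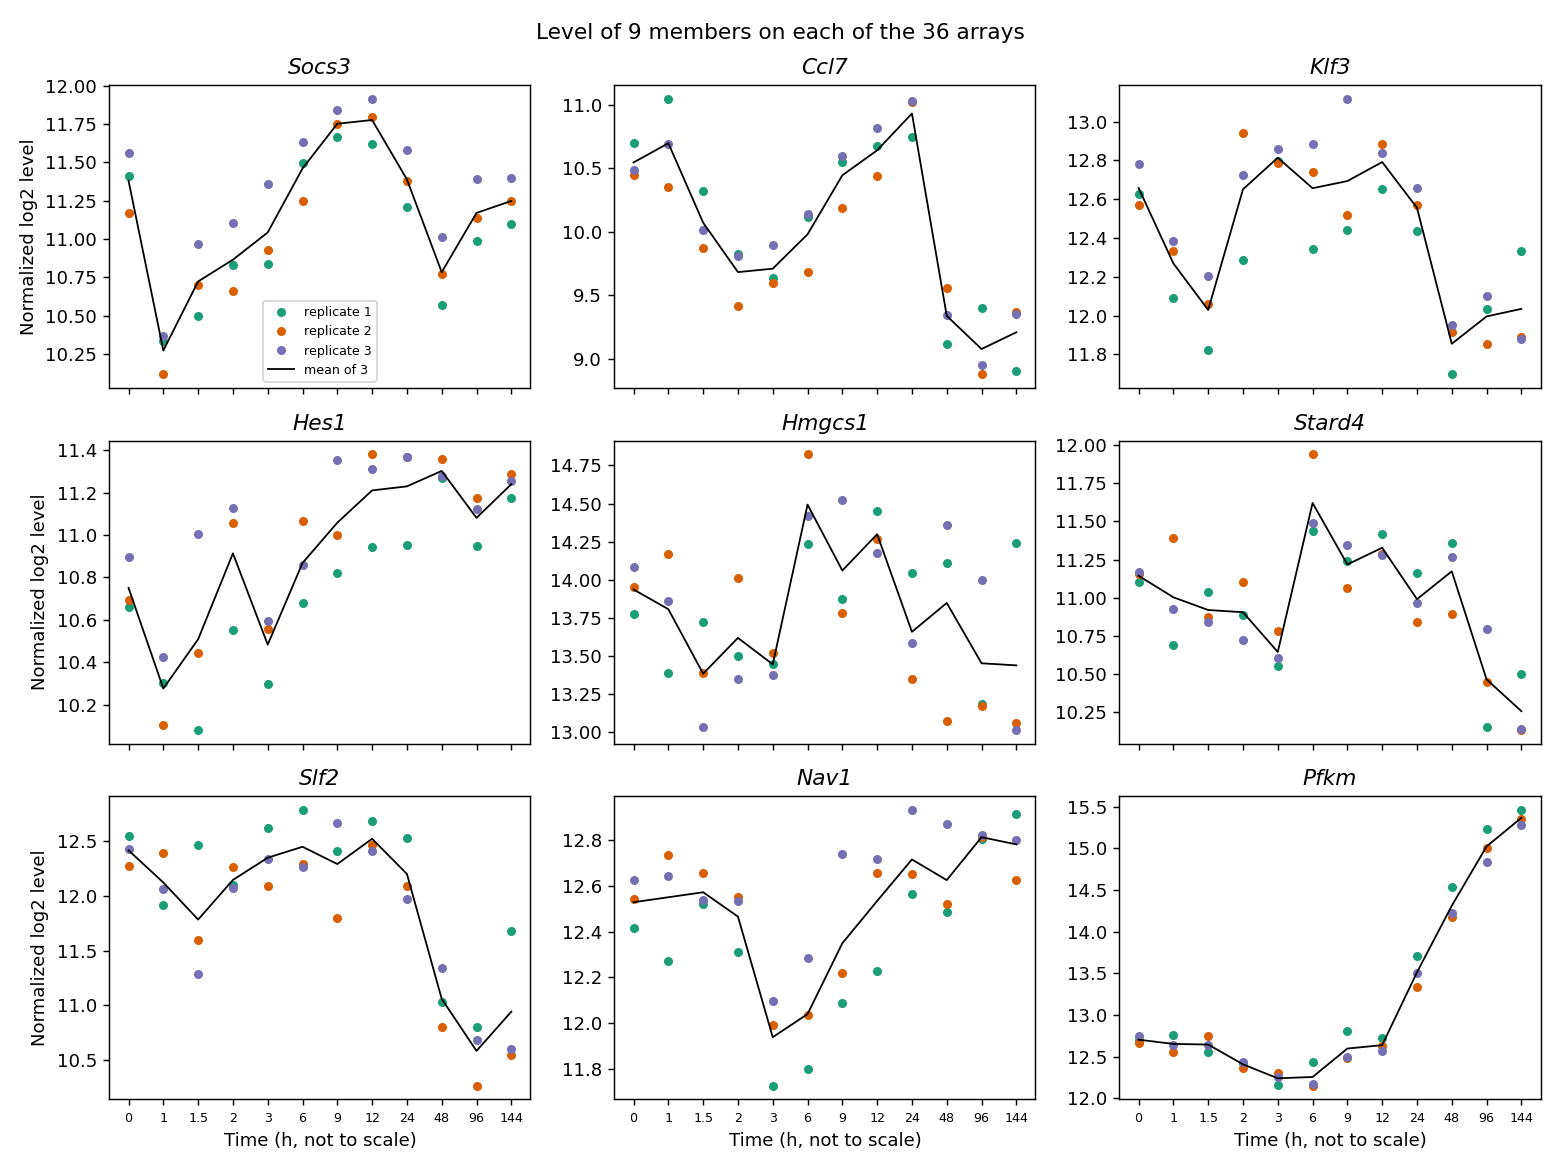
Normalized log2 level of 9 member probes on every array (points, coloured by replicate) and the mean of the 3 arrays (line) at the 12 times, which are evenly spaced and not to scale. Socs3, Ccl7, Nav1 and Pfkm dip clear of the 0 h points, Slf2 and Hmgcs1 have a 1.5 h point in replicate 1 close to its 0 h value, and after 24 h Klf3, Slf2 and Ccl7 drop while Pfkm climbs above 15.

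Transcription and chromatin genes were the largest group in this sorting, and their share among all genes on the array was not counted. Of their 20 probes 9 were lowest at 1.5 h, beside 32 of all 91 members. Hes1, a repressor that Notch induces and whose mRNA is known to oscillate, was at 10.66, 10.69 and 10.90 at 0 h and 10.30, 10.10 and 10.42 at 1 h, a difference of -0.47 ± 0.12 (SD, n = 3). The arrays did not overlap. Its replicates then parted, with 10.55 in replicate 1 against 11.06 and 11.13 in the others at 2 h, and from 24 to 144 h its mean lay 0.33 to 0.55 above the start. The later difference did not pass the test against 6 h (0.50 ± 0.20, SE, at 48 h; limma adjusted p = 0.081). At 144 h the difference was 0.42 with an adjusted p of 0.15, or 0.023 with the replicate as a block.

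Klf3, a zinc-finger repressor, was at 12.63, 12.57 and 12.78 at 0 h and 11.82, 12.06 and 12.21 at 1.5 h, so that the sets were separate, and its difference was -0.63 ± 0.15 (SD, n = 3), against -0.09 on the gene's other probe, which lay at only 8.92 at 0 h. The member probe was back at 12.34, 12.74 and 12.89 at 6 h and fell again to 11.70, 11.92 and 11.95 at 48 h, a difference of -0.76 ± 0.16 (SE; limma adjusted p = 0.00064), under all 18 alternatives. Msl1, a scaffold of the MSL histone acetyltransferase complex, went from 11.26, 11.38 and 11.53 to 10.70, 10.71 and 10.38 at 1.5 h, and its later values differed from 6 h by less than the test could call (-0.27 ± 0.15, SE, at 144 h; adjusted p = 0.24). Sertad3, a regulator of transcription that binds replication protein A, was at 9.87, 9.89 and 10.04 at 0 h and 9.45, 9.15 and 9.14 at 1 h, and its mean lay between -0.10 and 0.03 of the start from 6 h on.

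The homeobox genes Hoxa7 and Hoxc6, which encode positional transcription factors, and Pbx2, a partner of Hox proteins, were all members. Hoxa7 was at 10.11, 10.17 and 10.38 at 0 h and 9.81, 9.74 and 9.74 at 1 h, and rose from 6 h to 144 h by 0.65 ± 0.14 (SE; limma adjusted p = 0.00054), with an adjusted p of 0.0546 under median scaling. Against 0 h its mean at 144 h was higher by 0.26. At 1.5 h Hoxc6 had a difference of -0.51 ± 0.24 (SD, n = 3) and Pbx2 one of -0.48 ± 0.07. Neither passed the test between 6 h and 144 h, at 0.33 ± 0.16 and -0.08 ± 0.12 (SE).

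Chromatin regulators among the members included Men1 (menin) and the methyltransferase Setd1b, both of histone H3 lysine 4 methylation complexes, the corepressors Sin3b and Rcor2, the BAF subunit Bcl7a and the SAGA subunit Supt3. Men1 stood at 10.61, 10.83 and 10.75 at 0 h and 10.18, 10.30 and 10.22 at 2 h, Sin3b at 11.25, 11.23 and 11.44 and then 10.57, 11.03 and 10.86, and Rcor2 at 10.03, 10.14 and 10.05 and then 9.59, 9.49 and 9.64. In none of these did the 2 h arrays overlap those at 0 h. Of the 20 transcription and chromatin genes, 2 were higher and 4 lower at 144 h than at 6 h and 14 did not pass the test. Among bright probes 17.9% were higher and 20.2% lower, and among all probes 9.87% and 10.8%, so nothing particular to these genes is read from the counts. Supt3 was one of those higher, by 0.66 ± 0.15 (SE; limma adjusted p = 0.0015), and its mean against 0 h was -0.55 at 6 h and 0.15 at 144 h. Pml, the scaffold of PML nuclear bodies, was one of those lower, with a difference of -0.58 ± 0.13 (limma adjusted p = 0.0015). Both calls were lost without replicate 3, with adjusted p of 0.0656 and 0.0561 and differences of 0.69 and -0.61.

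Among genes of RNA and genome maintenance, Mex3a, an RNA-binding protein with an E3 ligase domain, was at 10.71, 10.59 and 10.86 at 0 h and 10.05, 10.00 and 9.96 at 1.5 h. It fell from 11.06, 10.93 and 10.61 at 6 h to 10.08, 9.73 and 9.72 at 144 h, a difference of -1.18 ± 0.15 (SE; limma adjusted p = 3.6e-07), under all 18 alternatives. Trmt1l, a tRNA methyltransferase-like protein, was at 11.77, 11.73 and 11.85 at 0 h and 10.83, 11.32 and 11.18 at 2 h, and lay 0.35 ± 0.13 (SE) higher at 144 h than at 6 h. Its adjusted p of 0.043 was lost in 9 of 18 alternatives, among them median scaling (0.16) and each single array of 144 h left out (0.142, 0.0634 and 0.0699).

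Slf2, which brings the SMC5/6 complex to damaged DNA, was a member through 2 probes. The first was at 12.55, 12.27 and 12.44 at 0 h and 12.47, 11.60 and 11.29 at 1.5 h, the second at 11.74, 11.54 and 11.67 and then 11.44, 10.97 and 10.86. Replicate 1 barely moved on the first probe, which overlapped its 0 h values, and moved least on the second. Both probes fell from 6 h to 144 h, with differences of -1.49 ± 0.26 and -1.39 ± 0.22 (SE; limma adjusted p = 5.9e-05 and 9.5e-06), under all 18 alternatives. Apaf1, the core of the apoptosome that activates caspase-9, had a difference of -0.53 ± 0.12 (SD, n = 3) at 1.5 h and stood at 10.17, 10.52 and 10.23 at 6 h and 9.32, 9.17 and 9.22 at 144 h. That fall was -1.46 ± 0.16 (SE; adjusted p = 2e-08), again under all 18.

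Ccng2, cyclin G2, is a FoxO target linked to cell-cycle exit. Its level was 10.30, 10.20 and 9.77 at 0 h and 9.98, 9.30 and 9.59 at 1 h, with overlapping arrays and a spread of 0.39 around a difference of -0.47. It fell from 10.89, 10.20 and 10.40 at 6 h to 9.80, 9.34 and 9.54 at 48 h (-1.16 ± 0.40, SE; limma adjusted p = 0.041), a call lost in 7 of 18 alternatives, with adjusted p of 0.0521 to 0.213. It was the only member in a list of FoxO and nutrient-sensing genes, of which 0 of 23 probes passed the test at 1, 1.5, 2 or 3 h against 0 h.

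Metabolic members fell into sterol genes and genes of fuel use. Hmgcs1, the cytosolic HMG-CoA synthase of cholesterol synthesis, was at 13.77, 13.95 and 14.08 at 0 h and 13.72, 13.39 and 13.03 at 1.5 h. Its difference of -0.55 had an SD of 0.50, and replicate 1 hardly changed. At 6 h all 3 arrays, at 14.24, 14.82 and 14.42, lay above all 3 at 0 h. Stard4, a carrier that moves cholesterol between membranes and is itself an SREBP target, was at 11.10, 11.16 and 11.17 at 0 h and 10.55, 10.78 and 10.60 at 3 h, without overlap. It also exceeded the start at 6 h, at 11.43, 11.94 and 11.49.

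Both sterol genes were lower at 144 h than at 6 h. Stard4 fell to 10.50, 10.13 and 10.14, a difference of -1.41 ± 0.18 (SE; limma adjusted p = 2.5e-07), under all 18 alternatives. Hmgcs1 stood at 14.24, 13.06 and 13.01, a difference of -1.02 ± 0.28 (adjusted p = 0.008) that rested on several single arrays: without replicate 2 it was -0.67 with an adjusted p of 0.233, without replicate 3 it was -0.86 with 0.14, and with the 6 h array of replicate 2 or a 144 h array of replicate 2 or 3 left out the adjusted p lay between 0.0616 and 0.0732. In a list of sterol synthesis and SREBP genes, 0 of 26 probes of 13 genes passed the test at 1 to 3 h, with a median of -0.23 at 3 h. At 48 h against 6 h 7 of these probes were higher and 0 lower, beside 17.4% and 17.2% of bright probes. Of all probes 9.02% and 9.61% were called there. For 144 h the list had 1 probe higher and 4 lower, where bright probes had 17.9% and 20.2%. The shares of all probes were then 9.87% and 10.8%. Those 4 include the member probes of Hmgcs1 and Stard4 and the other Stard4 probe. Nothing particular to sterol genes is therefore read from these few probes.

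Pfkm, the muscle form of phosphofructokinase in glycolysis, went from 12.69, 12.66 and 12.75 at 0 h to 12.15, 12.30 and 12.26 at 3 h (-0.46 ± 0.09, SD, n = 3). It was still at 12.44, 12.15 and 12.18 at 6 h and then climbed to 14.54, 14.17 and 14.22 at 48 h and 15.46, 15.36 and 15.28 at 144 h. The rise of 2.75 ± 0.11 (SE; limma adjusted p = 1.2e-18) from 6 h to 144 h was larger than that of any other member and held under all 18 alternatives. G0s2, an inhibitor of the fat-splitting lipase ATGL, was at 10.96, 10.79 and 10.60 at 0 h and 10.30, 10.39 and 10.30 at 2 h, and rose by 1.22 ± 0.16 (SE; adjusted p = 1.8e-06) between 6 h and 48 h. Of the 6 metabolic genes, 2 were higher, 2 lower and 2 not called at 144 h against 6 h, beside 17.9% of bright probes higher and 20.2% lower.

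In the cytoskeletal group, Arhgef2, a microtubule-bound exchange factor for RhoA, was at 10.39, 10.46 and 10.58 at 0 h and 9.47, 9.90 and 9.69 at 1 h on its member probe, a dip that its 2 other bright probes, at 8.87 and 10.05 at 0 h, did not share. Map1b, a microtubule-associated protein, was lower on both member probes at 1.5 h, with differences of -0.60 ± 0.30 and -0.46 ± 0.32 (SD, n = 3), and passed the test between 6 h and 144 h on neither (-0.00 ± 0.25 and 0.02 ± 0.26, SE). Nav1, which tracks microtubule plus ends, was at 12.41, 12.54 and 12.63 at 0 h and 11.73, 11.99 and 12.09 at 3 h, and rose from 11.80, 12.03 and 12.28 at 6 h to 12.92, 12.63 and 12.80 at 144 h, by 0.69 ± 0.15 (SE; limma adjusted p = 0.00063), under all 18 alternatives. Against 0 h its mean at 144 h was higher by 0.25.

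Pacsin3, a muscle-enriched protein that shapes caveolae and endocytic membranes, was at 10.85, 10.86 and 10.76 at 0 h and 10.37, 10.29 and 10.41 at 2 h. It had returned to 10.82, 10.70 and 10.69 at 6 h and rose to 12.34, 12.32 and 12.24 at 48 h and 12.71, 12.77 and 12.54 at 144 h. The rise from 6 h to 144 h was 1.94 ± 0.10 (SE; limma adjusted p = 1.9e-15), under all 18 alternatives. Synpo, an actin-associated protein, had the most even dip in the group, from 13.65, 13.68 and 13.90 to 13.20, 13.20 and 13.45 at 2 h, a difference of -0.46 ± 0.02 (SD, n = 3).

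Of the genes with no role given here, Fam110a was at 10.60, 11.02 and 10.78 at 0 h and 9.83, 10.36 and 10.14 at 1.5 h, and its difference between 144 h and 6 h did not pass the test (-0.04 ± 0.22, SE; limma adjusted p = 0.95). Tmem86a, a transmembrane protein, stayed low longer than most, at 9.25, 9.19 and 9.33 at 6 h, and reached 10.60, 11.14 and 11.38 at 144 h, a rise of 2.27 ± 0.22 (SE; adjusted p = 1.6e-09), under all 18 alternatives.

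The 22 probes without a symbol had their lowest value at 1 h in 7 cases, 1.5 h in 6, 2 h in 6 and 3 h in 3. Probe 101770541 had the largest late rise among them, from 9.52, 9.98 and 9.74 at 6 h to 11.89, 12.03 and 11.68 at 144 h (2.37 ± 0.21, SE; limma adjusted p = 3.1e-10). Probe 102690463 had the largest late fall of all members, from 12.04, 11.76 and 11.35 to 10.40, 9.23 and 9.54 (-2.29 ± 0.34, SE; adjusted p = 4.1e-06). Both calls held under all 18 alternatives. Probe 6420671, the second deepest dip, was at 12.24, 12.29 and 12.48 at 0 h and 11.49, 10.94 and 11.90 at 2 h, without overlap.

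The remaining gene lists of serum and differentiation responses hold few members. In the list of BMP, TGF-beta and Notch targets, whose only member is Hes1, the probes called lower at 1, 1.5, 2 and 3 h numbered 2, 3, 3 and 3 of 15 and were those of Id1 and Id3, inhibitors of myogenic bHLH factors, which still lay at -0.95 and -1.67 at 24 h on their brightest probes. Of 30 probes of serum-response and immediate early genes 8 were higher at 1 h, where 0.117% of all probes were, and none is a member. Of 37 probes of amino acid response genes 0, 1, 2 and 3 were lower at the 4 times, also with no member. Among all probes 0.0403%, 0.124%, 0.218% and 0.282% were lower at these times. None of the 28 probes of myogenic regulators and muscle structure genes or the 27 of cell-cycle genes passed the test at 1 to 3 h.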

How the data were processed

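Total RNA of 36 C2C12 cultures was labelled and measured on Illumina Mouse WG-6 v1.1 arrays, per the labels' protocols. The deposited raw table holds linear intensity values for 46019 probes, the lowest being 91.5, so background seems not to have been subtracted. The normalized table that the authors deposited is in log2 units, from 8.33 to 16.2, by a method not given in the sources used here. It was used for the choice of members, levels and differences from 0 h. Arrays have no read depth, so the 3 arrays per time limit the precision. Replicates came from successive passages, so p-values measure the spread between these cultures.

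For tests, raw intensities were background-corrected (limma normexp, offset 50), taken to log2 and quantile-normalized. Testing required a raw intensity over the array median on 3 or more arrays, which left 29812 probes. A mean for each of 12 times was fitted to all 36 arrays with limma 3.58.1 (R 4.3.3, empirical Bayes with an intensity trend), and two-sided p-values were Benjamini-Hochberg adjusted within each comparison at 0.05. Python 3.11.15, pandas 2.3.3 and matplotlib 3.10.9 were used. The fit was tested on simulated data with known changes in 100 probes of each size at 144 h against 6 h. It found 23% of log2 changes of 0.5 and 89% of changes of 1, and 5 of its 117 calls were false. A difference near 0.5 that did not pass the test is therefore not shown to be absent. The simulated noise was independent between arrays, and far fewer probes changed than the 20.6% called at 144 h against 6 h in the data. The shares of changes found and of false calls may thus differ in the real tests.

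Symbols come from the platform annotation through rows of the deposited series matrix with identical values on all 36 arrays (44505 probes). There were 28471 probes with 1 symbol, 10 with several and 17538 with none. Promoters are RefSeq's on GRCm38.p6.

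The members and lists were chosen with earlier results of these data known. The naming rule took the 12 deepest members with 1 symbol, the 2 deepest of each lowest time, the 4 largest rises and 4 largest falls at 144 h against 6 h, members in the gene lists and genes with 2 member probes, 26 probes in all. Whether replicate numbers pair the arrays was checked by the correlation of same-numbered deviations from the time means. All 3 correlations were above 0.1 for 96 h (0.12 to 0.43) and 144 h (0.28 to 0.42) against 6 h, but not for 48 h against 6 h (lowest -0.04) or 144 h against 48 h (lowest -0.16). Alternatives were median scaling, cyclic loess, uncorrected background, the authors' table, a stricter filter or none, no trend, the replicate or chip as a block, and fits without each replicate or array.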

Additional observations from a re-analysis of the deposited data

How the results depend on the processing

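The number of probes chosen by the rule depended most on the values used. It was 456 on normexp-corrected, quantile-normalized values, of which 80 were members, 207 with no background correction, of which 82 were members, and 105 to 159 with 1 replicate left out. At the same times the members' median dip was -0.58 and -0.56 on these other values. Counts of members called without 1 replicate ran from 28 to 34 at 48 h against 6 h, 24 to 47 at 96 h, 21 to 43 at 144 h and 8 to 11 at 144 h against 48 h. Without single arrays they ran from 33 to 43, 37 to 46, 28 to 41 and 10 to 17. The low counts came without replicate 2 (28 and 24) and without replicate 3 (21), whereas without replicate 1 the counts were 47 at 96 h and 43 at 144 h. At 144 h against 48 h the count of 19 became 8 under median scaling and 29 with the chip as a block, and fell to 12, 12 and 10 when replicate 1 at 48 h, replicate 2 at 48 h or replicate 1 at 144 h was dropped. The remaining settings gave 39 to 55, 44 to 58, 31 to 44 and 8 to 29, and the cause of these shifts was not tested. The upper values 55, 58 and 44 are those with the replicate block, which gave 28 at 144 h against 48 h and moved no count by over 1.5 times. Among single members, 20 of 44 calls at 48 h and 18 of 36 at 144 h against 6 h held under all 18 alternatives, and no call changed its direction. All 91 members were bright, which follows in part from the rule, and the 3 arrays per time limit the precision.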
